A study of Mus musculus with 12 samples.

Results

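The genes described here are the 3 that encode the chains of collagen V, Col5a1, Col5a2 and Col5a3, taken by gene name from a table of 55401 genes. The family was chosen by its measured TGF-β1 response, that of Col5a3 above all, so every comparison of these genes with untreated cells is given as a description with no test. The cells were bone marrow mesenchymal stem cells (MSCs) of C57BL/6 mice, bought from a supplier. There were 4 groups of 3 libraries, each with 73977669 to 84565450 counts in genes. Control MSCs were left untreated, and the other 3 groups all received 5 ng/mL TGF-β1, alone, with M-MDSC supernatant or with G-MDSC supernatant. The supernatants are media conditioned by sorted bone marrow-derived suppressor cells of the myeloid lineage, monocytic (M-MDSC) or granulocytic (G-MDSC). No group received supernatant without TGF-β1, so an effect of the medium itself was not measured. The labels do not say that the libraries of a group came from separate cultures, so p-values measure the spread between these libraries, which may be technical.

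Collagen V is a quantitatively minor fibril-forming collagen that co-assembles with collagen I, and its retained amino-terminal domain limits how thick a fibril grows. The common molecule holds a pair of α1(V) chains with an α2(V) chain, and another form holds one each of α1(V), α2(V) and α3(V). TGF-β1 is the classical inducer of collagen genes in fibroblasts and of their conversion to myofibroblasts. Haploinsufficiency of the human COL5A1 gene is a known cause of classical Ehlers-Danlos syndrome.

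The 3 genes lie on different chromosomes of GRCm38. Col5a1 (ENSMUSG00000026837), for α1(V), spans bases 27886425 to 28039514 of chromosome 2 on the plus strand, and its main transcript has 66 exons, 8406 bases and a coding length of 5517 bases. Col5a2 (ENSMUSG00000026042), for α2(V), spans bases 45374321 to 45503282 of chromosome 1 on the minus strand, with 54 exons, 6625 bases and 4494 coding bases. Col5a3 (ENSMUSG00000004098), for α3(V), spans bases 20770050 to 20815067 of chromosome 9 on the minus strand, with 67 exons, 6119 bases and 5220 coding bases. Reads could be told apart between the chains, since of the 6089 words of 31 bases in the Col5a3 transcript 2 also occurred in Col5a1, and none of those of Col5a2 occurred in another gene. Of the words of Col5a1, 2.21% occurred in other genes, mostly in the overlapping antisense genes Gm13372 and 2810430I11Rik.

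The 250 bases before the annotated start are shown for Col5a3, the chain with the largest TGF-β1 response, and for Col5a1, so that the letters around the starts of the 2 genes can be compared. They come from RefSeq on GRCm38.p6, at chr2:27886175-27886424 on the plus strand and chr9:20815068-20815317 on the minus strand, and the Col5a2 promoter is not shown. Capitals mark a match on either strand to CCAAT, to the GC box GGGCGG or to the SMAD-binding element CAGAC.
Col5a1 promoter: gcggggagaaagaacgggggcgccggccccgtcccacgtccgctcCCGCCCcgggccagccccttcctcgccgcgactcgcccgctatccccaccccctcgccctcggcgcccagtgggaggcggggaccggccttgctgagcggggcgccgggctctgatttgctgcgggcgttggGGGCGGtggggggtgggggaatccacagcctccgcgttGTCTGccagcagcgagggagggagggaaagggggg
Col5a3 promoter: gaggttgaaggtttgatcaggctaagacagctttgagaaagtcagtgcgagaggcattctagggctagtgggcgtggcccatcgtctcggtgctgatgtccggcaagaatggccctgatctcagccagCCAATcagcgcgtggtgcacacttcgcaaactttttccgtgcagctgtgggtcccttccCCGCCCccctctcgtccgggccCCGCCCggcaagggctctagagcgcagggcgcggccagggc
Counted back from the start, where -1 is the last base shown, Col5a1 held GC boxes beginning at -205 and -73 and a CAGAC element, on the reverse strand, beginning at -35. Col5a3 held a CCAAT box at -122 and GC boxes at -63 and -41. Neither window held TATAAA or the AP-1 site TGACTCA, and that of Col5a3 held no CAGAC. The motifs searched do not overlap one another in these windows. These matches are common: of 32851 promoters of this length, 33.8% held CCAAT, 32.7% GGGCGG, 42.2% CAGAC, 12.4% TATAAA and 4.46% TGACTCA, each on either strand. The Col5a1 window was 76.4% G or C and the Col5a3 window 62.8%, against a median of 52.4% over all promoters.

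Col5a3 was almost silent in untreated MSCs and reached a level near that of untreated Col5a1 with TGF-β1. Its FPKM, a level per transcript length and sequencing depth, was 0.348, 0.410 and 0.442 in the control libraries and 30.3, 34.2 and 28.9 with TGF-β1. The mean was 77.8-fold higher, rising from 0.400 ± 0.0477 to 31.1 ± 2.76 FPKM (SD, n = 3). The low level rested on 203 to 270 counts per control library, against 17584 to 21234 with TGF-β1, so it was measured well above 0. Among the 12016 genes that reached 1 FPKM in 3 or more libraries, its fitted log2 change with TGF-β1, 6.33, was the 7th from the top. It passed that filter through the TGF-β1-treated libraries alone, as its control values were all under 1 FPKM.

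Col5a1, whose chain is in every collagen V molecule, responded less. Its FPKM was 32.5, 31.4 and 30.6 in control MSCs and 114.6, 118.5 and 109.1 with TGF-β1, a 3.62-fold higher mean (31.5 ± 0.919 against 114 ± 4.74, SD, n = 3). Its fitted log2 change of 1.91 stood at rank 120 of the 12016 genes. Col5a2 was the most abundant chain throughout and changed least, from 80.7, 76.8 and 75.5 FPKM to 160.7, 160.5 and 157.9. Its mean was 2.06-fold higher (77.7 ± 2.71 against 159.7 ± 1.54, SD, n = 3), a fitted log2 change of 1.10 at rank 309. For all 3 chains every TGF-β1 library lay above every control library, as did those of 16.6% of all genes tested; since this contrast chose the genes, nothing is read from it.

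**Figure D1:**
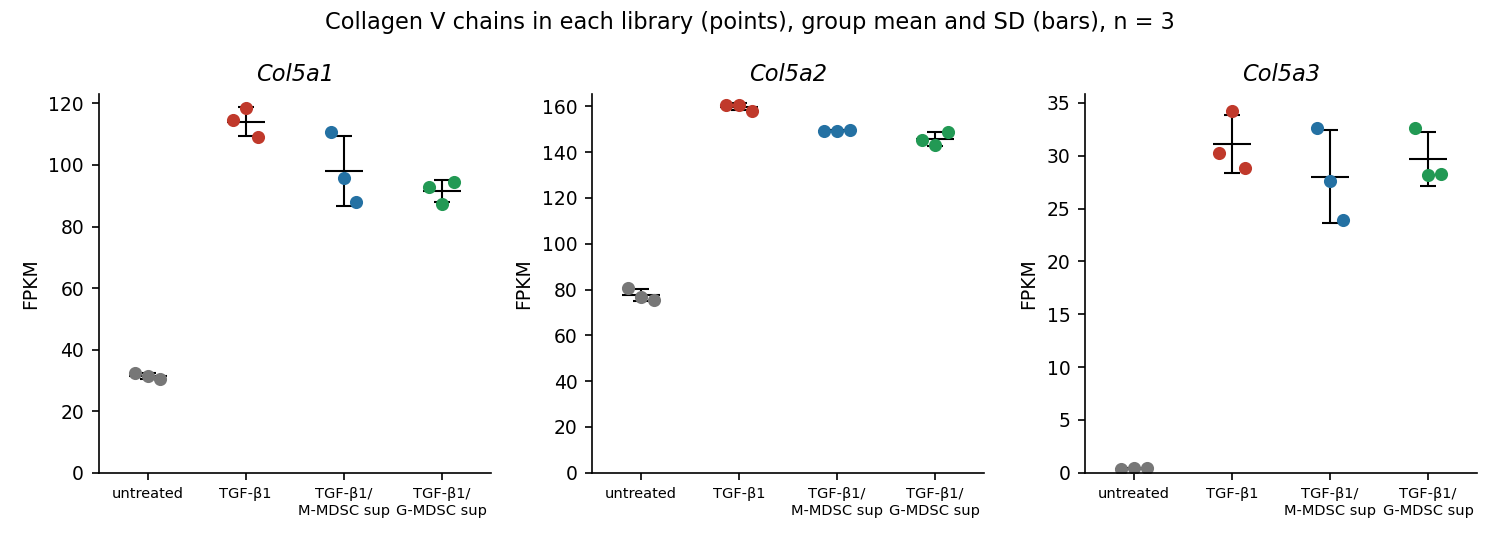
FPKM of Col5a1, Col5a2 and Col5a3 (vertical axes, linear, each from 0) in each of 12 libraries (points) of untreated MSCs and MSCs given TGF-β1 alone or with M-MDSC or G-MDSC supernatant (sup). Horizontal bars are means and error bars SD over 3 libraries. Col5a3 lies at 0.348 to 0.442 FPKM in untreated cells and at 23.9 to 34.2 FPKM in all libraries given TGF-β1.

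The unequal rises changed the make-up of the chain mRNAs. Col5a3 made up 0.366% ± 0.0549 of the summed FPKM of the 3 chains in control MSCs and 10.2% ± 0.629 with TGF-β1 (SD, n = 3). The share of Col5a1 went from 28.7% ± 0.168 to 37.4% ± 0.495, and that of Col5a2 from 70.9% ± 0.204 to 52.4% ± 1.08. In no library did the order of the chains change, Col5a2 being highest and Col5a3 lowest. The shares depend on the length behind the FPKM: by counts per kilobase of the main annotated transcript, Col5a2 held 77.6% ± 0.174 in control MSCs and 60.5% ± 1.05 with TGF-β1, and Col5a3 held 0.309% ± 0.0462 and 9.06% ± 0.588. The summed level of the 3 chains was 106.6 to 113.5 FPKM in control libraries and 295.9 to 313.2 FPKM with TGF-β1.

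Set against collagen I, its partner in the fibril, collagen V mRNA was also higher with TGF-β1. The summed FPKM of the 3 chains was 14.2% ± 0.735 of that of Col1a1 and Col1a2 in control MSCs and 21.2% ± 0.509 with TGF-β1 (SD, n = 3). With M-MDSC supernatant it was 21.3% ± 0.779, and with G-MDSC supernatant 21.3% ± 0.716. The 3 groups given TGF-β1 overlapped, at 20.5% to 22.1% in the 9 libraries together, and every control library was lower, at 13.6% to 15.0%. Since the contrast with control chose the genes, nothing is read from that gap. A larger rise than that of collagen I was not particular to collagen V. Col3a1, for collagen III, rose by 1.60 on the log2 scale of counts, against 1.11 for Col1a1 and 0.64 for Col1a2.

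**Figure D2:**
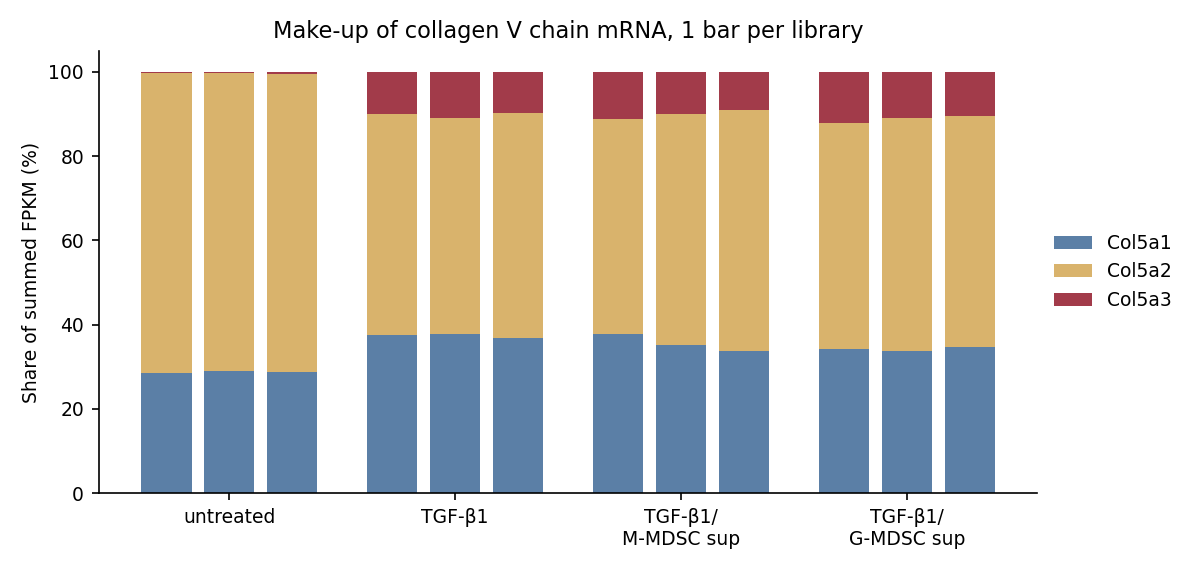
Share of each chain in the summed FPKM of Col5a1, Col5a2 and Col5a3 (vertical axis, percent from 0), 1 stacked bar per library, in the 4 groups. The top segment, Col5a3, is 0.306% to 0.414% in untreated libraries and 9.14% to 12.1% in those given TGF-β1.

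The supernatants were compared with TGF-β1 alone to ask whether they moved the chains back. These comparisons share the TGF-β1 libraries with the contrast that chose the genes, and with each other. With M-MDSC supernatant, Col5a1 measured 110.6, 95.7 and 87.9 FPKM, and with G-MDSC supernatant 92.9, 87.4 and 94.3 FPKM. All 3 G-MDSC libraries lay below the lowest TGF-β1 library, as did those of 9.55% of all genes, while 1 M-MDSC library fell inside the TGF-β1 range. Col5a1 fell with G-MDSC supernatant, by 0.34 on the log2 scale of counts (SE 0.074, 95% interval -0.51 to -0.18, edgeR quasi-likelihood test, Benjamini-Hochberg adjusted p = 0.0214). Of all genes tested in that comparison, 5.56% were called and 2.46% were called lower. With M-MDSC supernatant the log2 difference of Col5a1 was -0.24 (SE 0.074, interval -0.40 to -0.076) and did not pass the adjustment over all genes (edgeR adjusted p = 0.117), in a comparison where 4.78% of genes were called. Without the M-MDSC library that fell inside the TGF-β1 range, replicate 1, the difference was -0.34 (edgeR adjusted p = 0.00821), and without replicate 3, the lowest M-MDSC library, it was -0.17 (edgeR adjusted p = 0.292). The call with G-MDSC supernatant was also lost when any of 4 libraries was left out, TGF-β1 replicate 1 or 2 or G-MDSC replicate 1 or 2, with edgeR adjusted p from 0.0622 to 0.0863.

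Col5a2 varied little between libraries, and its differences were small. It measured 149.3, 149.3 and 149.5 FPKM with M-MDSC supernatant and 145.3, 142.9 and 148.8 FPKM with G-MDSC supernatant. Every library of either supernatant lay below every TGF-β1 library; for M-MDSC supernatant 10.6% of all genes did so. Col5a2 fell by 0.16 on the log2 scale with G-MDSC supernatant (SE 0.030, interval -0.23 to -0.092, edgeR adjusted p = 0.0105), a difference of -10.4%. With M-MDSC supernatant the log2 difference was -0.12 (SE 0.030, interval -0.19 to -0.052) and missed the threshold (edgeR adjusted p = 0.0528). DESeq2 called that difference (-0.11, adjusted p = 0.0331), and limma on log2(FPKM + 1) did not call the one with G-MDSC supernatant (-0.13, adjusted p = 0.0794), nor did edgeR on those 2 groups alone (-0.15, adjusted p = 0.0596) or without TGF-β1 replicate 2 (adjusted p = 0.0510).

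Col5a3, the chain with the largest response to TGF-β1, showed no called difference with either supernatant. It measured 32.6, 27.6 and 23.9 FPKM with M-MDSC supernatant and 32.7, 28.2 and 28.3 FPKM with G-MDSC supernatant, and both groups overlapped the TGF-β1 libraries. The log2 difference was -0.17 with M-MDSC supernatant (SE 0.12, interval -0.44 to 0.094, edgeR adjusted p = 0.520) and -0.093 with G-MDSC supernatant (SE 0.12, interval -0.36 to 0.17, edgeR adjusted p = 0.790). Leaving out 1 library at a time moved these from -0.30 (without M-MDSC replicate 1) to -0.069 (without M-MDSC replicate 3) and from -0.17 (without G-MDSC replicate 1) to -0.018 (without TGF-β1 replicate 2), none of them called. The intervals of Col5a3 are wider than those of the other chains and reach down to a difference of -26.3% for M-MDSC and of -22.1% for G-MDSC supernatant, so differences of the size seen for Col5a1 were not resolved. In both supernatant groups Col5a3 remained 70.1-fold and 74.3-fold above its control mean.

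Set against the rise from control to TGF-β1, the group means with G-MDSC supernatant were lower by 27.3% of the rise for Col5a1, 17.1% for Col5a2 and 4.59% for Col5a3. With M-MDSC supernatant the corresponding values were 19.4%, 12.6% and 10.1%. Single libraries spread widely for Col5a3, from -5.01% to 9.63% with G-MDSC supernatant and from -4.79% to 23.6% with M-MDSC supernatant, where a negative value is a level above the TGF-β1 mean. For Col5a1 they ran from 23.9% to 32.3% with G-MDSC and from 4.23% to 31.7% with M-MDSC supernatant, and for Col5a2 from 13.3% to 20.5% and from 12.5% to 12.7%. Every library of every chain was nearer to the TGF-β1 mean than to the control mean.

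The supernatants themselves could be compared in libraries that the choice of genes did not use. No chain was called. The log2 difference of M-MDSC from G-MDSC supernatant was 0.10 for Col5a1 (95% interval -0.061 to 0.27, edgeR adjusted p = 0.930), with overlapping libraries. Leaving out 1 library at a time, it ran from 0.0066 (without M-MDSC replicate 1) to 0.18 (without M-MDSC replicate 3), never called. For Col5a2 it was 0.040 (interval -0.027 to 0.11, edgeR adjusted p = 0.940), the M-MDSC libraries being just above those of G-MDSC in FPKM, as in 5.97% of all genes. For Col5a3 it was -0.080 (interval -0.35 to 0.19, edgeR adjusted p = 0.974), and the groups overlapped. Over all 12016 genes edgeR called 15 between the supernatants (0.125%), 12 higher and 3 lower with M-MDSC. That count depends on the fit: DESeq2 called 77 higher and 44 lower, edgeR on those groups alone 34 and 7, limma on log2(FPKM + 1) 29 and 9, and edgeR without M-MDSC replicate 3 called 11 and 36.

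**Figure D3:**
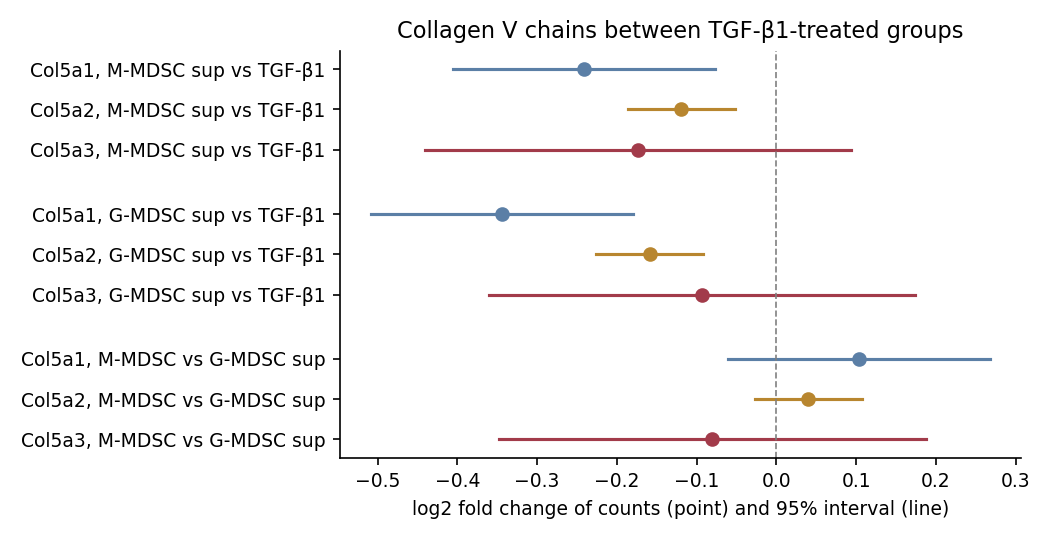
Log2 fold change of counts (horizontal axis, points) with its 95% interval (lines) for Col5a1, Col5a2 and Col5a3 between the 3 groups of MSCs given TGF-β1, from edgeR over all 12 libraries. With G-MDSC supernatant the intervals of Col5a1 (-0.51 to -0.18) and Col5a2 (-0.23 to -0.092) lie below 0, and that of Col5a3 (-0.36 to 0.17) spans it.

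Whether the chains moved unequally was tested on ratios within each library. With 3 libraries against 3 an exact permutation test cannot give a p below 0.1, so none of the 9 tests could pass 0.05. The ratios are therefore a description, and nothing is concluded from a lack of overlap. Those against TGF-β1 alone also share its libraries with the contrast that chose the genes. Relative to Col5a1, the log2 level of Col5a3 was 0.25 higher with G-MDSC supernatant than with TGF-β1 alone, without overlap (-1.63 ± 0.114 against -1.88 ± 0.0725, SD, n = 3, two-sided exact permutation p = 0.1, adjusted 0.3). The Col5a1 to Col5a2 ratio was 0.18 lower on the log2 scale with G-MDSC supernatant, also without overlap (-0.67 ± 0.0346 against -0.49 ± 0.0482, exact permutation p = 0.1, adjusted 0.3). The Col5a3 to Col5a1 ratio was 0.19 lower in the M-MDSC than in the G-MDSC group at the same exact permutation p = 0.1. The other 6 comparisons gave exact permutation p from 0.3 to 0.9.

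Cell markers were read beside these values. Itgb1 and Cd44, surface antigens of MSCs, were abundant in every library (246.6 to 394.1 and 38.5 to 65.3 FPKM), and Kit and Pecam1, which MSCs should lack, were at most 0.0117 and 0.218 FPKM. Ly6a, which encodes Sca-1, was 245 FPKM on average in control MSCs, 16.2 with TGF-β1, 92.5 with M-MDSC and 66.9 with G-MDSC supernatant, so it moved with the groups. The summed FPKM of 10 myeloid markers was 6.20 to 7.10 in control libraries, 2.27 to 3.18 with TGF-β1, 4.32 to 6.80 with M-MDSC and 5.63 to 8.47 with G-MDSC supernatant. The mean was above that of TGF-β1 alone for 9 of the 10 with M-MDSC supernatant and for all 10 with G-MDSC supernatant. Cd68, Ly6g and Ly6c2 were highest in control MSCs, at 2.38, 1.83 and 1.71 FPKM on average, against 1.48, 0.0681 and 0.0450 with TGF-β1 alone. With M-MDSC supernatant they averaged 2.35, 0.0619 and 0.148 FPKM, and with G-MDSC supernatant 2.07, 0.125 and 0.211 FPKM. Lyz2, lysozyme of myeloid cells, had 0 to 23 counts in control libraries and at most 12 in a TGF-β1 library. It had 71 to 262 with M-MDSC and 185 to 262 with G-MDSC supernatant. S100a9 had 0 counts in the control and TGF-β1 libraries, 12 to 43 with M-MDSC and 0 to 160 with G-MDSC supernatant. Itgam, which encodes the CD11b used in sorting MDSCs, had 0 counts in control libraries and at most 1 with TGF-β1 alone. It had 0 to 41 with M-MDSC and 14 to 42 with G-MDSC supernatant. Itgam reached at most 0.0927 FPKM, Ptprc 0.0157 and Adgre1 0.0258 in any library. The part of these shifts in the collagen V values was not tested, and in bulk RNA fewer cells of a type and less RNA per cell cannot be told apart.

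Among the other 8 fibril-forming collagen genes, the family collagen V belongs to, 5 passed the filter. With TGF-β1 4 of these rose, in a comparison where 16.1% of genes tested were called higher, and the other, Col27a1, was under 1 FPKM in every control library and passed the filter through the TGF-β1-treated libraries, so it is given with no test. Col1a1 and Col1a2, the chains of collagen I, rose by 1.11 (SE 0.063) and 0.64 (SE 0.037) on the log2 scale, with edgeR adjusted p of 2.65e-07 and 3.10e-07. Col3a1, for collagen III, rose by 1.60 (SE 0.038, edgeR adjusted p = 7.24e-10). Col27a1 measured 0.534 ± 0.0695 FPKM in control MSCs and 2.02 ± 0.146 with TGF-β1 (SD, n = 3), a fitted log2 difference of 1.97. With each supernatant the same 3 of the 5 fell, Col11a1, Col1a2 and Col3a1, where 1.95% (M-MDSC) and 2.46% (G-MDSC) of all genes were called lower. Col1a2 fell by 0.18 (SE 0.037, edgeR adjusted p = 0.0189) and 0.22 (SE 0.037, edgeR adjusted p = 0.00579), and Col1a1 was -0.17 and -0.23 without a call (edgeR adjusted p = 0.182 and 0.0613). The fibril-forming genes that did not pass the filter were Col2a1, Col11a2 and Col24a1.

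**Figure D4:**
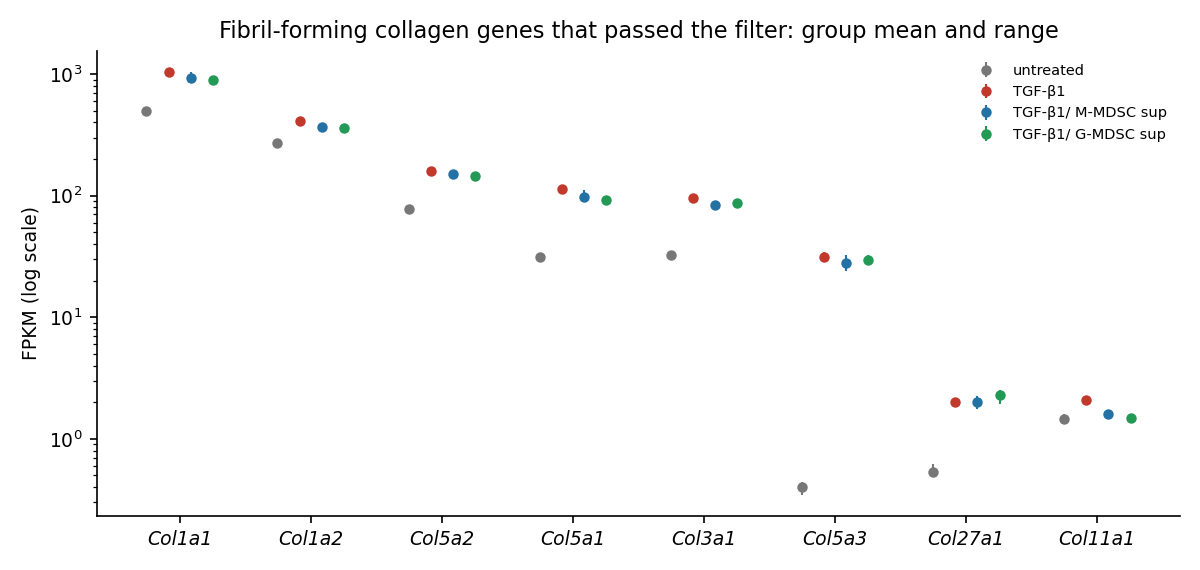
Mean FPKM (points, vertical axis on a log scale) and range over 3 libraries (lines) of the 8 fibril-forming collagen genes that passed the filter, in the 4 groups. Col5a3 moves from 0.400 FPKM in untreated MSCs, below Col27a1 at 0.534, to 31.1 FPKM with TGF-β1, below Col3a1 at 95.3.

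Beyond the fibril-forming genes, 6 further lists cover the proteins that fold, process, bind or signal to collagen V. With those of the fibril-forming list, 70 of 91 genes were tested. All the lists were chosen with earlier results of these data known, so their counts are a description and not independent support. With TGF-β1 41 rose and 14 fell, where 34.0% of all genes were called (16.1% higher, 17.9% lower). The median log2 change was 0.42 against 0.00048 over all genes. Of the 41, 3 (Col27a1, Cspg4 and Fmod) were under 1 FPKM in every control library and passed the filter only where they were high, which leaves 38. Genes called lower, here or with supernatant, were not checked for passing the filter only where they were high. With M-MDSC supernatant 16 were lower and 3 higher than with TGF-β1 alone (median -0.074 against -0.013 over all genes), and with G-MDSC supernatant 18 were lower and 4 higher (median -0.12 against -0.014). Of all genes 1.95% were called lower for M-MDSC and 2.46% for G-MDSC. The 16 became 8 without TGF-β1 replicate 1 or 2, 7 without M-MDSC replicate 2 and 9 without M-MDSC replicate 3. Over all 12016 genes the 234 called lower became 123, 101, 124 and 119 in those fits, in that order. The 18 became 10 without TGF-β1 replicate 2 and 11 without TGF-β1 replicate 1 or G-MDSC replicate 1. Over all genes the 296 called lower became 164, 182 and 160. Tgfbr3, Aebp1 and Thbs2 were the 3 higher ones in both, with Dcn the fourth for G-MDSC supernatant; of all genes 2.83% and 3.10% were called higher. By the study's fold rule (at least 2-fold either way, unadjusted p under 0.05) 21 of the 70 changed with TGF-β1, against 2.60% of all genes higher and 4.14% lower. The 21 include Col27a1, and genes that passed the filter only where they were high were not taken out of that count. That rule called 0 of the 70 with either supernatant, against 1.94% higher and 0.241% lower of all genes for M-MDSC and 1.90% and 0.275% for G-MDSC. Between the supernatants none of the 70 was called by edgeR or DESeq2, and 6 had an unadjusted edgeR p under 0.05, as did 6.33% of all genes.

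Collagen V is folded and modified in the endoplasmic reticulum by prolyl and lysyl hydroxylases and the chaperone Serpinh1 (HSP47). Of 15 tested genes of that list 8 rose and 3 fell with TGF-β1, beside 16.1% and 17.9% of all genes. Serpinh1 rose by 0.52 (SE 0.039, edgeR adjusted p = 2.32e-06) and P4hb, the β subunit of prolyl 4-hydroxylase, by 0.36 (SE 0.025, edgeR adjusted p = 1.43e-06). Crtap, of the prolyl 3-hydroxylation complex, was -0.23 and not called (SE 0.11, edgeR adjusted p = 0.148). With supernatant 1 of the 15 was called lower in each comparison, P3h1 for M-MDSC (1.95% of all genes) and P4hb for G-MDSC (2.46%).

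Of 10 tested genes for the enzymes that trim and cross-link procollagen and their enhancers, 6 rose and 3 fell with TGF-β1, beside the same 16.1% and 17.9% of all genes. Bmp1, the procollagen C-proteinase that also cleaves the amino-terminal part of α1(V), rose by 1.39 (SE 0.059, edgeR adjusted p = 2.85e-08), and Lox, a lysyl oxidase, by 1.21 (SE 0.038, edgeR adjusted p = 3.44e-09). Pcolce, an enhancer of Bmp1, fell by 1.13 (SE 0.061, edgeR adjusted p = 1.74e-07). Lox fell with both supernatants, by 0.29 with M-MDSC (SE 0.037, edgeR adjusted p = 0.000989) and by 0.27 with G-MDSC (SE 0.037, edgeR adjusted p = 0.00163). Of the 2 fibril-associated collagens tested, both rose with TGF-β1 (16.1% of all genes). Col12a1 fell with each supernatant, where 1.95% (M-MDSC) and 2.46% (G-MDSC) of all genes were called lower.

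Of 9 matrix partners of the fibril tested, 6 were higher with TGF-β1 (16.1% of all genes), 1 of them, Fmod, with every control library under the filter, and Aebp1, Thbs2 and Tnxb fell (17.9% of all genes). Those that rose included Fn1 (fibronectin, 0.48, SE 0.077, edgeR adjusted p = 0.000684), Sparc (0.34, SE 0.046, edgeR adjusted p = 0.000172) and Bgn (biglycan, 0.41, SE 0.046, edgeR adjusted p = 4.77e-05). Fn1, Sparc and Thbs1 (thrombospondin 1) fell with both supernatants, Sparc by 0.28 with M-MDSC and 0.36 with G-MDSC (SE 0.046 in each, edgeR adjusted p = 0.00492 and 0.000896). In this list 4 of the 9 were lower and 2, Aebp1 and Thbs2, higher with M-MDSC supernatant, and 5 were lower and 3, Aebp1, Dcn and Thbs2, higher with G-MDSC supernatant, beside 1.95% lower and 2.83% higher and 2.46% lower and 3.10% higher of all genes. Of 13 tested genes for integrins and other matrix receptors and for cell-surface proteoglycans 9 were higher with TGF-β1, 1 of them, Cspg4, with every control library under the filter, and 2 were lower, beside 16.1% and 17.9% of all genes. Itga5, the fibronectin receptor α5 chain, rose by 2.18. The syndecans Sdc4 and Sdc2 fell by 0.99 and 0.20, while the syndecans Sdc1 and Sdc3 rose. Of 16 genes for the promoter factors and the TGF-β signal, 5 rose and 3 fell, the share that fell being near the 17.9% of all genes. Smad3, which carries the signal to the nucleus, fell by 0.99, and Tgfbr2, a receptor, by 1.00.

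The genes whose levels followed each chain most closely were found by distance over the 12 libraries, on log2(FPKM + 1) relative to the control mean. As the libraries fall into separate groups, this is a description of the pattern, and no correlation is given. Nearest to Col5a1 were Ccn4, Lpin3, Nat8l, Ltbp2 and Unc5b, at distances from 0.296 to 0.324, whereas Col5a2 lay at 2.10 and Col5a3 at 8.41. Nearest to Col5a2 were Sdc3, Lox, Ank, Cd200 and Thap12, at distances from 0.234 to 0.259. The added 1 compresses changes of genes near 0, so a small distance need not mean an equal fold change. Nat8l went from 0.0259 FPKM in control MSCs to 2.61 with TGF-β1, and Cd200 from 0.208 to 1.42. Col5a3 had no gene that close: Jag1, a Notch ligand, was first at 2.48, then C1qtnf3, Il11, Ctsw and Has2 up to 4.63. Jag1 went from 1.14 ± 0.130 FPKM in control MSCs to 25.2 ± 2.06 with TGF-β1, 24.5 ± 2.95 with M-MDSC and 26.6 ± 1.76 with G-MDSC supernatant (SD, n = 3).

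The genes that flank Col5a3 on chromosome 9 were also higher with TGF-β1 than in control MSCs, at much lower levels. Rdh8, a retinol dehydrogenase gene, begins 3.44 kb beyond the Col5a3 start and points away from it. It had 0 counts in each control library, which allows up to 3 per library if each count is 1 fragment, something the sources used here do not state, and 123, 116 and 75 counts with TGF-β1, 148, 135 and 143 with M-MDSC and 165, 156 and 197 with G-MDSC supernatant. Olfm2, 23.7 kb beyond the Col5a3 end, measured 0.273, 0.137 and 0.0768 FPKM in control libraries and 2.36, 2.90 and 2.02 with TGF-β1, without overlap and given with no test, since it reached 1 FPKM in the TGF-β1-treated libraries alone. Neither was called between a supernatant and TGF-β1 alone. Rdh8 was under 1 FPKM in every TGF-β1 library and passed the filter through the supernatant libraries. Both neighbours were chosen for their position after their values were seen. Col5a2 has Col3a1 as its neighbour, 24.6 kb away and tail to tail, with the values given above.

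**Figure D5:**
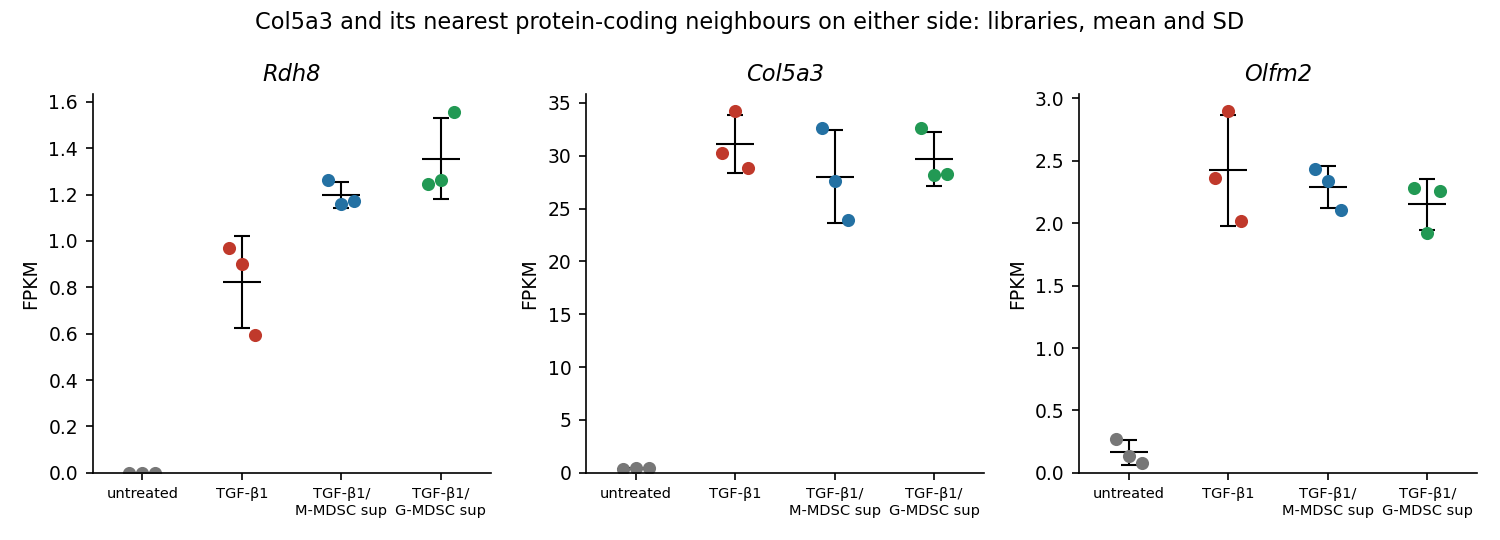
FPKM (vertical axes, linear, each from 0) of Rdh8, Col5a3 and Olfm2 in each of 12 libraries (points), with the mean and SD over 3 libraries (bars). Rdh8 was listed at 0 in the untreated libraries and averaged 0.822 FPKM with TGF-β1, and Olfm2 averaged 0.163 and 2.43 FPKM.

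Genes that overlap the chains had few counts. Gm13372, antisense within Col5a1, had 50 to 184 counts against at least 23480 for Col5a1, and the other overlapping genes had at most 220. The library kit marks strand, but whether the counting used it is not given in the sources used here, so reads of an antisense gene cannot be told apart from those of its partner.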

How the data were processed

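RNA was measured in 12 libraries, 3 in each group, by sequencing of poly(A) RNA from dUTP-marked libraries. Per the study's methods, the authors aligned reads to GRCm38 with HISAT2; the submitters' processing notes also name HISAT2 2.0.4, StringTie 1.3.4d, cutadapt 1.9, edgeR and DESeq2. The authors deposited 1 table that holds for each library the gene read counts, which are not normalized, and the FPKM, fragments scaled to transcript length and sequencing depth. The counter behind the counts and its strand setting are not given in the sources used here.

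Levels are the deposited FPKM values. Differences were fitted to the deposited counts of all 12 libraries with edgeR 4.0.16 (R 4.3.3; TMM scaling, quasi-likelihood test, Benjamini-Hochberg adjustment over the 12016 of 55401 genes that reached 1 FPKM in 3 or more libraries). A call is an adjusted p under 0.05. Log2 chain ratios were compared with two-sided exact permutation tests, adjusted over 9 tests. The scripts were tested on simulated counts. DESeq2 1.42.0, limma 3.58.1 on log2(FPKM + 1) and log2(FPKM + 0.1), other scalings and filters, the replicate number as a block, and leaving out each library were the alternatives. Library totals ran from 73977669 to 84565450 counts. Library pairs of a group differed by 61.9 to 84.9 times the counting variance, so none was counted as a duplicate. Deviations from the group mean did not follow replicate number (mean r of -0.000255 over 18 pairs with the same number, 0.000144 over 36 others), so libraries were not paired.

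The members and the gene lists were chosen with earlier results of these data known. The text names the 3 chains, genes from among the 4 of each list with the highest mean FPKM (1 gene is not reported here), and the 5 genes nearest to each chain by Euclidean distance over log2(FPKM + 1) minus the control mean; any other gene named was chosen after its values were seen. Gene models were GENCODE vM21 and promoters RefSeq on GRCm38.p6, in which 2 of the 3 chains matched.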

Additional observations from a re-analysis of the deposited data

How the results depend on the processing

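For the chains between the TGF-β1-treated groups, the calls and directions that changed are given here, and the cause was not tested. For Col5a2, DESeq2 called the M-MDSC difference (-0.11, adjusted p = 0.0331), and the G-MDSC difference was not called by limma on log2(FPKM + 1) (-0.13, adjusted p = 0.0794), limma on log2(FPKM + 0.1) (-0.13, adjusted p = 0.0973) or edgeR on those groups alone (-0.15, adjusted p = 0.0596). Leaving out 1 library at a time, the log2 difference of Col5a1 ran from -0.37 to -0.31 with G-MDSC supernatant, and its call was lost without TGF-β1 replicate 1 or 2 or G-MDSC replicate 1 or 2 (edgeR adjusted p from 0.0622 to 0.0863). With M-MDSC supernatant it ran from -0.34 to -0.17 and was called without M-MDSC replicate 1 (edgeR adjusted p = 0.00821). That of Col5a2 with G-MDSC supernatant ran from -0.18 to -0.14, its call being lost without TGF-β1 replicate 2 (edgeR adjusted p = 0.0510), and that of Col5a3 between the supernatants from -0.20 to 0.024, turning without M-MDSC replicate 3. The ratio differences that turned were Col5a1 to Col5a2 between the supernatants (-0.033 to 0.13, without M-MDSC replicate 1), Col5a3 to Col5a2 with M-MDSC (-0.18 to 0.048, turning without M-MDSC replicate 3 or, at 0.0038, TGF-β1 replicate 2) and with G-MDSC supernatant (-0.0055 to 0.13, without G-MDSC replicate 1).

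Of the 70 genes of the lists, the fold rule of the study (2-fold and unadjusted p under 0.05) called 21 with TGF-β1, Col27a1 among them, and 0 with either supernatant. The shares of all genes called by that rule are given above. Fitting only the groups compared called 11 with M-MDSC and 13 with G-MDSC supernatant, and leaving out 1 library called 10 to 17 and 13 to 16. Calls over all 12016 genes fell too. For M-MDSC they were 340 higher and 234 lower in the main fit, 257 and 94 with only the groups compared, and 254 to 302 and 101 to 170 without 1 library. For G-MDSC they were 372 and 296, 348 and 155, and 291 to 322 and 160 to 256. Shares of chains by transcript length, chosen after seeing the data, moved as given above. The replicate number used as a block changed no call of a chain (Col5a1 with G-MDSC supernatant -0.34, adjusted p = 0.0250; Col5a2 -0.16, adjusted p = 0.0325), and libraries with the same number did not deviate together. Depth was at least 203 counts for every chain in every library, and the spread between 3 libraries a group set the width of the intervals.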
